A study of Mus musculus with 8 samples.

Results

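The clustered histone genes are the gene copies that sit in the histone clusters of the mouse genome and are named Hist1 to Hist4 followed by the histone they encode. Of 49492 gene rows in the table of RNA-seq values, 70 carried such a name, and the 66 with a value above 0 in at least 4 of the 8 samples were taken. The measured level was used only for this minimum, and no comparison of genotypes or media entered the choice. A gene can still meet the minimum through its fed libraries or through 1 genotype alone. The 66 genes comprised 5 linker histone genes (H1) and 61 core histone genes, of which 19 are named for H2A, 17 for H2B, 12 for H3 and 13 for H4. In the GENCODE M21 annotation 2 of the H2A rows, Hist1h2al and Hist1h2aj, are pseudogenes. By cluster, 54 were Hist1 genes, 10 were Hist2 genes, and the Hist3 and Hist4 clusters gave 1 each. The 4 rows left out were Hist3h2bb-ps, Hist3h2ba, Hist1h1t and Hist1h2aa, each above 0 in at most 3 samples.

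The cells were mouse embryonic fibroblasts (MEFs), immortalized by serial passage, in which the endogenous gene for Pontin (Ruvbl1, an ATPase of chromatin remodelling complexes) is floxed and was removed with a Cre virus. A lentivirus supplied Flag-tagged Pontin, either the wild type (WT) or the RA form, in which methylated arginines are replaced by alanine. They grew in normal medium or were deprived of glucose, in glucose-free medium with dialyzed serum, and for how long is not given in the sources used here. This made 4 groups of 2 replicates: WT in normal medium (fed WT), starved WT, RA in normal medium (fed RA) and starved RA. All groups share the floxed background, the loss of endogenous Pontin and the selected viral transgene. Each genotype was 1 stable line, so a difference between lines and one between Pontin forms cannot be told apart. The study states in general that its experiments were repeated independently, but the labels do not say whether the 2 libraries of a group came from separate cultures, so the p-values measure the spread between these libraries, which may be technical.

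Histones package DNA: H2A, H2B, H3 and H4 form the nucleosome core and H1 binds the linker between cores. The clustered genes are the replication-dependent ones, switched on together as cells enter S phase to cover newly made DNA. Most lack introns, and most of their mRNAs end not in a poly(A) tail but in a short stem-loop that is bound by the protein SLBP and cut with the help of the U7 snRNP. Some copies can also be read further, to a polyadenylation signal downstream, and a few are spliced. The libraries were made from poly(A)-selected RNA, so a value here counts whatever part of the histone mRNA passed that selection and is not the total histone mRNA of the cell.

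The stem-loop is shown because a transcript that ends there carries no poly(A) tail. It was searched on the transcript strand as GGNNNTTNTNAGNNCC in the GENCODE M21 transcripts (GRCm38, not the mm9 build of the deposited values) and occurred in 44 of the 66 genes, against 1.06% of 55275 other genes. Capitals mark the 6 bases on each side that can pair, and lower case marks the 4-base loop. Each form is given with 1 gene that carries it, the strand and the place of the 16 bases.
Hist1h1c, chr13:23739512-23739527, plus strand, the form of 25 genes of H1, H2A, H2B and H3: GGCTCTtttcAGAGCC
Hist1h2bk, chr13:22036300-22036315, plus strand, the form of 5 genes of H2B and H3: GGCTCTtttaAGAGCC
Hist1h3g, chr13:23535889-23535904, plus strand, 1 gene: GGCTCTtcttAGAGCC
Hist2h2ac, chr3:96220418-96220433, minus strand, 1 gene: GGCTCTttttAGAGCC
Hist1h4h, chr13:23531458-23531473, plus strand, the form of 7 genes of H4: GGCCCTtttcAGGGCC
Hist1h4i, chr13:22040966-22040981, minus strand, the form of 2 genes of H4: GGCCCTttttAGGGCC
Hist1h4j, chr13:21735437-21735452, plus strand, the form of 2 genes of H4: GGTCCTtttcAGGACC
Hist1h4a, chr13:23760800-23760815, minus strand, 1 gene: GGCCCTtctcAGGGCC
Every stem found in H4 genes was GGCCCT or GGTCCT, and every stem found in the other classes was GGCTCT. The annotated transcripts ended at most 60 bases after the stem-loop in 22 genes and ran further in the other 22. A gene without a match may still have a stem-loop beyond its annotated end. The 19 genes with neither a match nor splicing had a median longest transcript of 393 bases, against 483.5 for genes that end at the stem-loop.

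In 15 of the 66 genes an annotated transcript held a polyadenylation signal, AATAAA or ATTAAA, in its last 50 bases, against 44.0% of the other genes. The signals of 4 genes that the results turn on are shown in capitals with their flanks, since these transcripts can acquire a tail. Hist1h2bc and Hist1h3c, to which the results also refer, held no such signal in that window.
Hist1h1c: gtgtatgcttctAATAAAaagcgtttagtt
Hist1h4i: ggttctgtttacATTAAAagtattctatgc
Hist3h2a: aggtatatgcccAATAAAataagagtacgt
Hist2h3c1: ttttttaatcccAATAAAaatttaacacac
In Hist1h1c the annotated transcript ran 840 bases past the stem-loop, in Hist1h4i 330 bases, in Hist3h2a 1643 bases and in Hist2h3c1 1167 bases. A match is a description of the letters, and which end the sequenced molecules had was not measured.

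Promoters were read because most of the tested genes moved in the same direction under starvation. RefSeq promoters on GRCm38.p6, from 250 bases before to 50 after the start, were matched for 58 of the 66 genes and searched on both strands for the octamer ATTTGCAT, for CCAAT, for TATAAA and for the H1 box AAACACA. The letters of these motifs do not contain one another. The octamer was in 13 of the 58, namely 6 of 16 H2A and 7 of 15 H2B genes and none of the other classes, against 1.75% of 32544 promoters. These are not 13 separate sites, because promoters of neighbouring genes on opposite strands can overlap. Hist1h2bg and Hist1h2ae have nearly the same promoter window, as do Hist1h2bk and Hist1h2ah, and all carry the octamer. In such a pair 1 motif is counted for an H2A and an H2B gene. CCAAT was in 49 (37.4% of all promoters) but in only 3 of 12 H4 genes. TATAAA was in 33 (13.6% of all promoters), and the H1 box was in 7, of which 4 were among the 5 H1 genes (7.196% of all promoters). The 120 bases before the start are shown for the linker gene with the highest value, for an H2B gene that fell in both genotypes and for the H2A gene that stood apart, with the motifs in capitals.
Hist1h1c, chr13:23738687-23738806, plus strand: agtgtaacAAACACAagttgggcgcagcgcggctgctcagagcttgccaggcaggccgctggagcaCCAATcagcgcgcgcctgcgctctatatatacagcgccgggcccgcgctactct
Hist1h2bg, chr13:23571280-23571399, plus strand: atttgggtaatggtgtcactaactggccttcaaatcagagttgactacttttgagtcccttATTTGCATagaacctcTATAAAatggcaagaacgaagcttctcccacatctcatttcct
Hist3h2a, chr11:58954565-58954684, plus strand: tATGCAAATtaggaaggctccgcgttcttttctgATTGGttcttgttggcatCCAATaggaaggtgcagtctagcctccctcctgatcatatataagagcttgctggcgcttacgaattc
Hist3h2a thus carried CCAAT, as all matched H2A and H2B genes did, and the octamer (on the minus strand), as some of them did.

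Values are in CPM, reads of a gene per 1000000 reads of the library, for which the deposited table used a library size rescaled in each sample. Between 43205841 and 56363034 reads were recovered per library from the values, and 3 reads, taken as the smallest count that can be told from 0, were worth 0.0548 to 0.069 CPM. Read totals cover counting error only. Low counts were mostly even, as when both mates of a fragment are counted, so 3 reads can stand for fewer than 3 fragments. The targeted gene, Ruvbl1, read 28.4 and 27.6 in fed WT, 27.9 and 28.4 in starved WT, 36.8 and 32.0 in fed RA and 45.0 and 42.9 in starved RA, so the RA line held more Ruvbl1 mRNA, and these reads do not separate the transgene from any endogenous copy. All 10 fibroblast markers had a mean of at least 1 CPM, and their summed value was 10905 to 11009 in fed WT, between 5571 and 5656 in starved WT, 10842 to 11187 in fed RA and between 7362 and 7374 in starved RA. Of the other marker lists, 2 of 5 blood, 1 of 4 endothelial and 2 of 5 epithelial genes and no muscle or pluripotency gene reached a mean of 1 CPM, and 2 of 4 muscle genes were at 0 in every library. The summed endothelial markers were 2.52 to 3.39 in fed WT, 8.92 to 9.43 in starved WT, 2.02 to 3.43 in fed RA and 5.99 to 6.34 in starved RA. In the same order the summed blood markers were 13.3 to 13.97, 23.9 to 25.1, 16.2 to 17.6 and 21.2 to 21.8, and the summed epithelial markers 83.2 to 89.9, 37.2 to 38.8, 89.5 to 101.6 and 64.8 to 68.3. The part of other cell types in the results was not tested.

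Most clustered histone genes were at a low level. The median of their mean values was 0.782 CPM, against 4.16 CPM over the 25075 rows above 0 in at least 4 samples, and 22 of the 66 had a mean of at least 1 CPM. The H2B gene Hist1h2bc was highest, with a mean of 33.9 CPM, followed by the linker gene Hist1h1c with 19.2 CPM and the H4 gene Hist1h4i with 9.05 CPM. Divided by annotated exon length, which the authors' own annotation may not share, WT cells in normal medium held 47.2 CPM per kilobase of Hist1h2bc, 21.1 of Hist1h4i, 20.9 of Hist1h1c and 17.5 of the H2B gene Hist1h2bg. Hist1h4i and Hist1h1c were therefore at about the same level per length, and Hist1h2bc was above both.

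The near-identical copies limit what a single row can mean. In 29 of the 66 genes 50% or more of the 100-base windows of the annotated transcripts also occurred in another gene, in 5 genes all did and in 5 none did. Hist1h2bq and Hist1h2br shared over 86% of their windows with each other and had almost the same values (5.48 to 6.001 and 5.48 to 6.33 CPM in fed WT). The copies Hist2h2aa1 and Hist2h2aa2 also had almost the same values, and all of their windows occurred in other genes. All 586 exon bases of Hist2h2aa1 lie opposite exons of Gm20633, and all 528 of Hist2h2aa2 opposite exons of Gm20632. The strand setting of the counting is not given, so their values may hold reads of these genes. Hist2h3c1 lies wholly within the exons of Gm20634 on the same strand, and Hist3h2a shares 708 exon bases with Trim17. How the authors' counting divided such reads is not given in the sources used here, so such copies cannot be told apart, and a summed value may hold a read more than once.

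Glucose starvation lowered the summed value of every histone class in both genotypes. For the core genes the 2 libraries of WT in normal medium summed to 179.4 and 180.9 CPM and those of starved WT to 47.7 and 50.02. In RA the core genes summed to 178.8 and 184.1 in normal medium and 61.9 and 58.9 under starvation. Core histone signal was thus 3.69 times higher in normal medium than under starvation in WT and 3.003 times in RA, with no overlap between fed and starved libraries. Without Hist1h2bc, the highest core gene, these ratios were 3.15 and 2.79. With 2 libraries against 2, the smallest exact two-sided permutation p is 0.333, so summed values are given without a test.

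The linker class showed the largest drop in WT and the largest gap between starved genotypes. The 5 H1 genes summed to 36.0 and 34.5 CPM in fed WT and to 2.93 and 2.72 in starved WT. In RA they summed to 33.4 and 37.1 in normal medium and to 10.01 and 9.79 under starvation. The sum was 12.5 times higher in normal medium than under starvation in WT (11.7 to 13.2 over the pairs of libraries) and 3.57 times in RA (3.34 to 3.80), and starved RA was 3.5 times starved WT. H1 accordingly made up 16.4% ± 0.50 (SD, n = 2) of the clustered histone signal in fed WT, 5.48% ± 0.45 in starved WT, 16.3% ± 0.73 in fed RA and 14.1% ± 0.23 in starved RA. Most of this was 1 gene, Hist1h1c, which alone made up 15.2%, 4.95%, 15.1% and 12.9% of the signal in the same order.

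**Figure D1:**
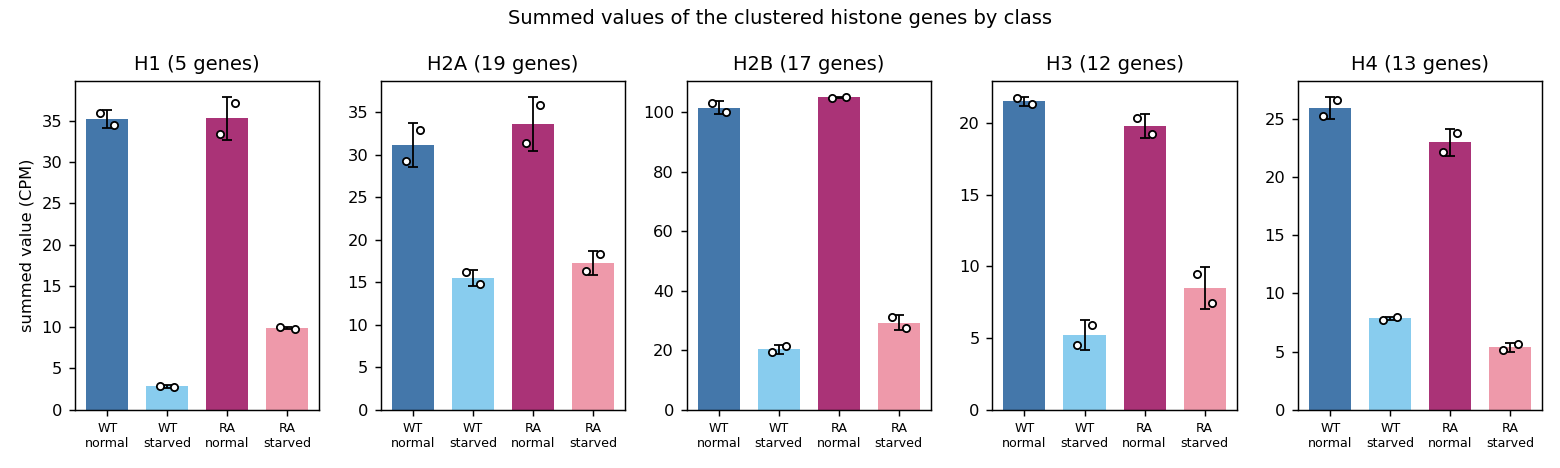
Summed value in CPM (vertical axes, starting at 0 and scaled per panel) of the clustered histone genes of each class in the 4 groups. Bars are means of 2 libraries, error bars are SDs and circles are the libraries. The H1 sum is 2.83 in starved WT and 9.90 in starved RA, and H4 is the class with the lower sum in starved RA, 5.35 against 7.86.

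The core classes differed in how far they fell. The H2B sum was 103.1 and 100.1 CPM in fed WT and 19.3 and 21.3 in starved WT, a ratio of 5.003, and in RA the ratio was 3.58. H3 had ratios of 4.13 in WT and 2.34 in RA. The H2A sum had the smallest ratios, 2.01 and 1.94, and Hist3h2a, the highest H2A gene, did not pass the test in WT. A sum follows its highest genes, and the median H2A gene, given below, fell further than the H2A sum in both genotypes. The H4 sum went the other way from the rest, with a ratio of 3.30 in WT and 4.30 in RA. The H4 libraries of starved RA (5.09 and 5.62) lay below those of starved WT (7.75 and 7.97). Those of fed RA (22.2 and 23.8) already lay below those of fed WT (25.3 and 26.6). In none of the 6 tested H4 genes was a difference in response between genotypes called (limma interaction, described below). The opposite direction of H4 is therefore a description of the sum. Taking each gene once rather than by its level, the median ratio of normal to starved was 10.4 for H1, 5.29 for H2A, 5.31 for H2B, 3.95 for H3 and 2.84 for H4 in WT. In RA the medians were 3.15, 3.48, 3.77, 2.68 and 3.39 in the same order, with Hist1h4f, at 0 in both starved RA libraries, set to the floor of 3 reads per library, and Hist2h2ab, at or under that floor in RA, left out.

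The starvation response in WT asks which genes change when wild-type Pontin cells lose glucose. Of the 66 genes, 43 passed the filter of at least 1 CPM in at least 2 samples, and 40 of them were lower and none higher in starved WT (limma, Benjamini-Hochberg (BH) adjusted over 16232 genes, threshold 0.05). Over all genes tested 78.6% were called and 39.2% were called lower. The median difference of the 43 was −0.93 on the log2(CPM + 1) scale, which understates the change of low genes, and that of all genes was 0.00. The count was repeated with 2 other filters, and under each of the 3 filters a gene can pass through its fed libraries alone, so these counts describe the genes that passed. With a mean of at least 0.5 CPM, 45 of 48 genes were lower (38.4% of all genes), and with a value above 0 in at least 4 samples 57 of 66 were lower (28.9% of all genes). Fewer cells in S phase and less histone mRNA per cell cannot be told apart in bulk samples.

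On the log2(CPM + 1) scale the 5 largest drops in starved WT were in 1 linker, 3 H2B and 1 H4 gene. Hist1h1c, which encodes a linker histone, read 33.3 and 32.0 CPM in normal medium and 2.56 and 2.56 under starvation, a log2 difference of −3.24 (SE 0.084, limma BH-adjusted p = 8.60e-16). Hist1h2bc read 55.6 and 53.5 and then 8.26 and 9.77, a log2 difference of −2.48 (SE 0.071, limma BH-adjusted p = 3.20e-15). Hist1h2bg read 10.7 and 10.9 and then 2.07 and 2.12, a log2 difference of −1.93 (limma BH-adjusted p = 1.85e-11). In each of these 3 genes all fed libraries lay above all starved ones by a wide margin. Hist1h4i fell by 1.71 on the log2 scale, from 15.05 and 15.7 to 4.09 and 3.89 CPM (limma BH-adjusted p = 1.24e-10). Hist1h2be fell by 1.57, from 4.83 and 4.74 to 0.922 and 0.968 CPM (limma BH-adjusted p = 2.08e-09), and it shares 496 exon bases with the linker gene Hist1h1e. By the ratio of fed to starved means the order among tested genes was another, with Hist1h1c (12.8) followed by the H2A genes Hist1h2ag (10.9), Hist1h2ao (9.37) and Hist1h2ap (9.34), which were named after their values were seen, and with Hist1h2bc at 6.05 and Hist1h4i at 3.85. These H2A ratios rest on few reads: starved WT held 0.283, 0.185 and 0.184 CPM per kilobase, over 480 to 485 exon bases. Hist1h2ao and Hist1h2ap shared over 92% of their windows with each other, so their ratios are not separate results.

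The exceptions in WT were all H2A rows. All 13 tested H2B, 10 tested H3 and 6 tested H4 genes fell, as did the 1 tested H1 gene, while 10 of 13 H2A genes did. Hist3h2a read 7.89 and 9.07 CPM in normal medium and 7.92 and 7.60 in starved WT, so the groups overlapped (log2 difference −0.11, limma BH-adjusted p = 0.332). Hist2h2aa2 read 2.94 and 3.47 and then 2.60 and 2.47 (log2 difference −0.25, limma BH-adjusted p = 0.0782), and its copy Hist2h2aa1 just passed the test at −0.33 (limma BH-adjusted p = 0.0251), a call lost at the wider filter of a value above 0 in at least 4 samples (limma BH-adjusted p = 0.0627). Hist1h2al, annotated as a processed pseudogene at chr13:51202727-51203065, far from the other Hist1 genes, read 0.739 and 0.564 and then 0.419 and 0.475 (log2 difference −0.19, limma BH-adjusted p = 0.205). It was named after its values were seen. Over all 66 genes, both starved WT libraries were below both fed ones in 62 (38.9% of 25075 rows above 0 in at least 4 samples), and the exceptions, named after their values were seen, were Hist3h2a, Hist2h4, Hist2h2ac and Hist2h2ab, of which the last 3 were under 0.5 CPM in every library.

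**Figure D2:**
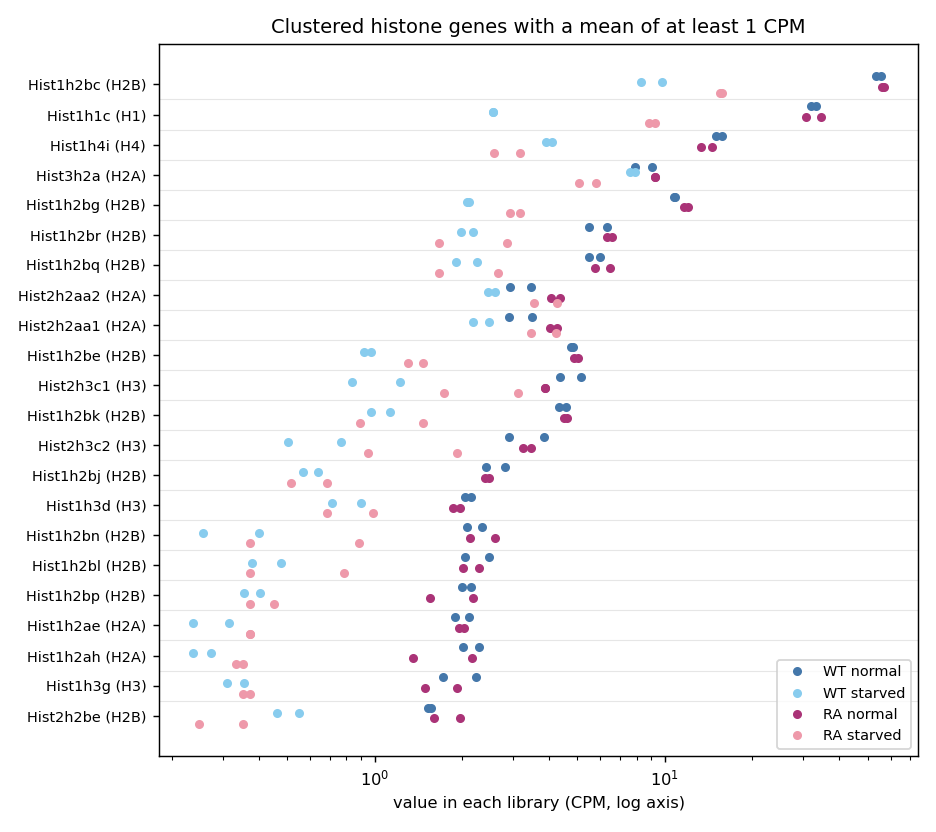
Value of each of the 22 clustered histone genes with a mean of at least 1 CPM in each of the 8 libraries (horizontal log axis, CPM), with genes ordered by mean and 2 points per group. Fed libraries of both genotypes lie to the right of starved ones for Hist1h2bc and Hist1h1c, while Hist3h2a in WT and Hist2h2aa1 and Hist2h2aa2 in RA overlap.

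The same comparison in RA gave 40 lower and none higher among the 43 tested genes, against 68.7% of all genes called and 33.7% called lower (limma, BH-adjusted p-value under 0.05). The median difference was −0.77, and that of all genes 0.01. With a mean of at least 0.5 CPM, 45 of 48 genes were lower (32.7% of all genes), and with a value above 0 in at least 4 samples 57 of 66 (23.1% of all genes). Both starved RA libraries were below both fed ones in 60 of 66 genes (33.9% of all rows above 0 in at least 4 samples).

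In RA the largest drop on the log2(CPM + 1) scale was in an H4 gene, whereas by the ratio of fed to starved means the H2A genes Hist1h2ap (10.1), Hist1h2ao (9.004) and Hist1h2ag (7.96) were ahead of Hist1h4i (4.86). These H2A ratios again rest on few reads, with 0.250, 0.293 and 0.414 CPM per kilobase in starved RA, and the first 2 genes are near copies. Hist1h4i read 13.3 and 14.6 CPM in normal medium and 2.59 and 3.16 under starvation, a log2 difference of −1.95 (SE 0.11, limma BH-adjusted p = 4.43e-11). Hist1h2bc read 55.9 and 56.9 and then 15.5 and 15.7, a log2 difference of −1.79 (limma BH-adjusted p = 6.82e-13). Hist1h1c read 30.8 and 34.6 and then 9.26 and 8.84, a log2 difference of −1.74 (limma BH-adjusted p = 9.21e-12). In these genes, too, fed and starved libraries were far apart. Hist1h2bg fell by 1.67 on the log2 scale, to 2.92 and 3.16 CPM, and the H2B gene Hist1h2bk by 1.36, to 1.47 and 0.888 CPM (limma BH-adjusted p = 2.71e-10 and 1.67e-07). The tested genes that did not pass were again H2A rows, Hist2h2aa1 (4.02 and 4.26 CPM, then 3.47 and 4.21), Hist2h2aa2 (4.07 and 4.34, then 3.55 and 4.25) and Hist1h2al (1.15 and 1.24, then 0.979 and 1.09), whereas Hist3h2a fell from 9.24 and 9.24 to 5.07 and 5.78 CPM (log2 difference −0.67, limma BH-adjusted p = 2.07e-05). The starved pairs of Hist2h2aa1 and Hist2h2aa2 overlapped the fed ones.

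RA against WT in normal medium asks how the RA and WT lines differ without stress. No clustered histone gene of the 43 passed the test, against 9.63% of all genes, and 4 had an unadjusted limma p-value under 0.05. By edgeR and by DESeq2 on recovered reads the count was also 0. The median log2 difference was −0.04 for the 43 genes and 0.01 for all genes. The sums were close as well, 215.4 and 215.4 CPM over all 66 genes in WT and 212.3 and 221.3 in RA. Hist1h1c differed by −0.00 (SE 0.084), a value that changed sign when a library was left out. At the wider filter the linker gene Hist1h1a was the only 1 of 66 called, with 0.644 and 0.659 CPM in RA against 0.239 and 0.343 in WT (log2 difference 0.36, limma BH-adjusted p = 0.0264, 4.40% of all genes called), and by edgeR on halved reads at that filter its BH-adjusted p was 0.246.

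RA against WT under glucose starvation asks which transcripts differ between the RA and WT lines once glucose is gone. Of the 43 tested genes 10 were higher and 2 lower in starved RA (limma, BH-adjusted p-value under 0.05), against 62.9% of all genes called, 30.8% higher and 32.1% lower. The share of clustered histone genes called, 27.9%, was thus under that of all genes, whose median of mean values was 21.9 CPM against 1.04 CPM for the 43. The median difference was 0.10, and −0.01 for all genes. After quantile normalization the calls were 6 higher and 7 lower and the median was −0.11, beside −0.08 for all genes, so the direction of the group as a whole depended on the scaling.

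The higher genes in starved RA came from H1, H2A, H2B and H3 and the lower ones from H2A and H4. Hist1h1c read 9.26 and 8.84 CPM in starved RA against 2.56 and 2.56 in starved WT, a log2 difference of 1.498 (SE 0.084, limma BH-adjusted p = 1.12e-10) that lay between 1.33 and 1.84 over the alternatives. Hist1h2bc read 15.5 and 15.7 against 8.26 and 9.77, a log2 difference of 0.74 (SE 0.071, limma BH-adjusted p = 1.17e-07). Both genes had no overlap between genotypes under starvation and almost equal levels in normal medium. The H3 gene Hist2h3c1 read 3.11 and 1.73 against 0.838 and 1.22, a log2 difference of 0.73 (SE 0.17, limma BH-adjusted p = 0.00112) that was 0.44 without starved RA replicate 1. Its neighbour Hist2h3c2 read 1.92 and 0.950 against 0.503 and 0.767, a log2 difference of 0.55 (limma BH-adjusted p = 0.0109). Of the windows of Hist2h3c2, 61.6% also occurred in Gm20634, whose exons hold Hist2h3c1, so these calls may share reads. For Hist2h3c2 the log2 difference was 0.26 and the BH-adjusted limma p 0.232 without starved RA replicate 1, and the p was 0.0972 without starved WT replicate 1 and 0.0592 after quantile normalization. Hist2h2aa1 was higher by 0.54 (limma BH-adjusted p = 0.00154), with 3.47 and 4.21 against 2.47 and 2.19 CPM. Hist2h2aa1 shares 529 exon bases with Gm20634 on the same strand, and Hist2h2aa2 is its copy, so these H2A and H3 calls may not be separate results. Both copies also lie opposite other genes, Gm20633 and Gm20632, and the part of those genes in these values was not tested. Hist1h2bg, Hist2h2aa2, Hist1h2be, Hist1h3c and Hist1h2al, the last named after its values were seen, were higher by 0.29 to 0.49. Hist1h2al reached 1 CPM only in RA libraries, so it passed the first filter through the genotype where it is high, and its call there is a description. At the wider filter, which it met in both genotypes, its BH-adjusted limma p was 0.00241. The call of Hist1h2be was lost at the wider filter (limma BH-adjusted p = 0.0897) and by edgeR on halved reads at that filter (BH-adjusted p = 0.0865). The 2 lower genes were Hist3h2a, with a log2 difference of −0.45 (5.07 and 5.78 against 7.92 and 7.60 CPM, limma BH-adjusted p = 0.00123), and Hist1h4i, with −0.37 (2.59 and 3.16 against 4.09 and 3.89 CPM, limma BH-adjusted p = 0.00609). Without starved RA replicate 1 the BH-adjusted limma p of Hist1h4i was 0.0821.

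The interaction (the RA response minus the WT response) tests whether the 2 genotypes differed in their response. It was called for 5 of the 43 genes, 4 in the direction of a smaller drop in RA and 1 in that of a larger drop, against 50.6% of all genes (24.5% higher and 26.1% lower). Hist1h1c had the largest value, 1.5 (SE 0.12, limma BH-adjusted p = 2.38e-08), followed by Hist2h3c1 with 0.97 (SE 0.24, limma BH-adjusted p = 0.00274), Hist1h2bc with 0.69 (SE 0.10, limma BH-adjusted p = 2.60e-05) and the H3 gene Hist1h3c with 0.53 (SE 0.20, limma BH-adjusted p = 0.0358). Hist1h3c read 1.54 and 1.15 CPM in fed WT, 0.335 and 0.219 in starved WT, 1.20 and 1.07 in fed RA and 0.627 and 0.723 in starved RA. Its call was lost when WT normal replicate 1, WT starved replicate 2, RA normal replicate 2 or either starved RA replicate was left out (BH-adjusted limma p of 0.054 to 0.147), and after quantile normalization (0.206). Hist3h2a was the gene with the larger drop in RA, at −0.56 (SE 0.15, limma BH-adjusted p = 0.00433). After quantile normalization 3 genes were called higher and 4 lower, and the median of the 43 was −0.04 in place of 0.16.

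**Figure D3:**
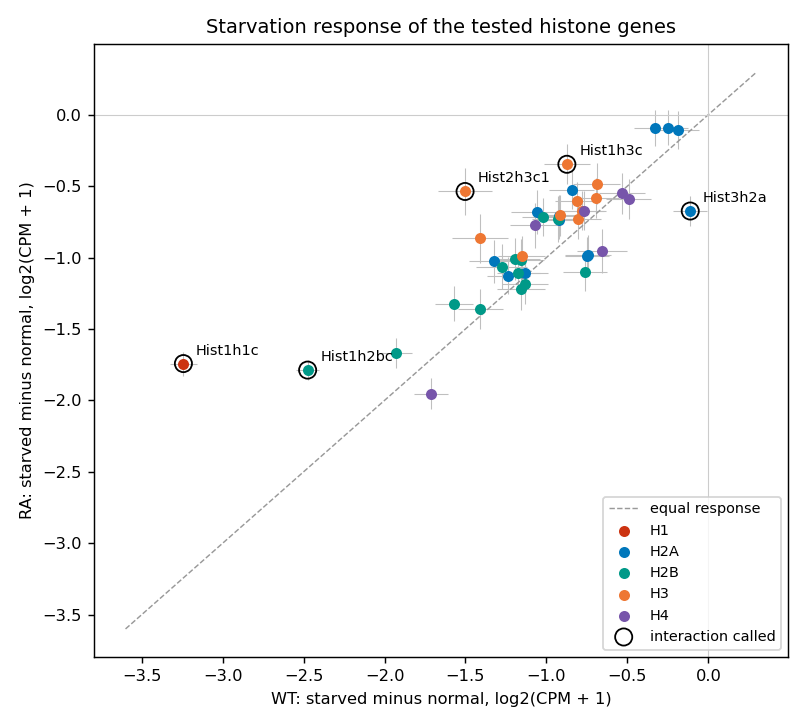
Starvation response in RA (vertical axis) against that in WT (horizontal axis) for the 43 tested clustered histone genes, each the difference starved minus normal on the log2(CPM + 1) scale with its SE as a grey bar and its colour by class. Circled genes had a called interaction: Hist1h1c, Hist2h3c1, Hist1h2bc and Hist1h3c lie above the dashed line of equal response and Hist3h2a below it.

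The 4 linker genes besides Hist1h1c were under the first filter and rest on few reads. Both mates of a fragment may be counted, so the reads below can stand for fewer fragments. Hist1h1b gave 39 and 37 reads in fed WT, 4 and 3 in starved WT, 38 and 38 in fed RA and 5 and 20 in starved RA. Hist1h1e gave 38 and 40, 4 and 4, 28 and 32, and 14 and 8 reads in the same order. Hist1h1d gave 35 and 27, 6 and 0, 22 and 29, and 10 and 14 reads. In these 3 genes every starved library was below every fed one of its genotype, and the starved RA libraries were above the starved WT ones, as in 33.5% of all rows above 0 in at least 4 samples. The shares of rows with both starved libraries below both fed ones were 38.9% in WT and 33.9% in RA, and the starved groups of Hist1h1b were parted by only 5 reads against 4. Hist1h1a gave 11 and 17, 4 and 2, 28 and 34, and 9 and 4 reads, with overlap between the starved groups. With a value above 0 in at least 4 samples as the filter, all 5 linker genes fell in both genotypes by limma (28.9% of all genes were lower in WT and 23.1% in RA) and the interaction was called for 1, Hist1h1c (32.3% of all genes). By edgeR on halved reads at that filter, a test chosen after the data were seen, 5 fell in WT (28.8% of all genes lower) and 4 in RA (23.4%), Hist1h1d with a BH-adjusted p of 0.0807 in RA. Without Hist1h1c the linker sum was 2.56 CPM in fed WT, 0.271 in starved WT, 2.62 in fed RA and 0.847 in starved RA, so the ratios of normal to starved were 9.44 and 3.10. The ratio in WT was 6.78 without starved WT replicate 2 and 15.5 without starved WT replicate 1.

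Ordered by annotated transcript end, histone signal fell in every group of genes. The 22 genes whose transcripts run past the stem-loop held 44.5% of the signal in fed WT and 44.4% in starved WT, and the 3 spliced H2B genes without a stem-loop, Hist1h2bc, Hist1h2bq and Hist1h2br, held 30.7% and 25.5%. The 22 genes that end at the stem-loop held 15.2% and 20.503%. Their summed value was 32.6 ± 1.4 CPM (SD, n = 2) in fed WT and 10.6 ± 0.47 in starved WT, a ratio of 3.08, and 33.7 ± 0.40 and 13.9 ± 0.46 in RA, a ratio of 2.42. The genes that run past it had ratios of 4.17 and 3.11 and the spliced genes 5.02 and 3.44. Gene by gene the order was another one, with median ratios of 4.45 and 3.57 for genes that end at the stem-loop, 4.96 and 3.24 for those that run past it and 2.82 and 2.85 for the spliced ones. Of the tested genes, 15 of 16 that end at the stem-loop, 12 of 13 that run past it and all 3 spliced genes were lower in starved WT (limma, BH-adjusted p-value under 0.05), and 14 of 16, 13 of 13 and 3 of 3 were lower in starved RA, against 39.2% and 33.7% of all genes. In genes whose annotated transcripts held neither a stem-loop nor splicing, the sums had ratios of 4.19 and 3.29. Of these, 10 of 11 tested were lower in each genotype. Many of their transcripts are annotated as short, so this group may hold genes whose stem-loop lies past the annotated end. The interaction was called for 30.8% of the 13 tested genes that run past the stem-loop, under the 50.6% of all genes. Of the 5 interaction calls, that of Hist1h2bc was in the spliced group. The difference between these groups was not tested.

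**Figure D4:**
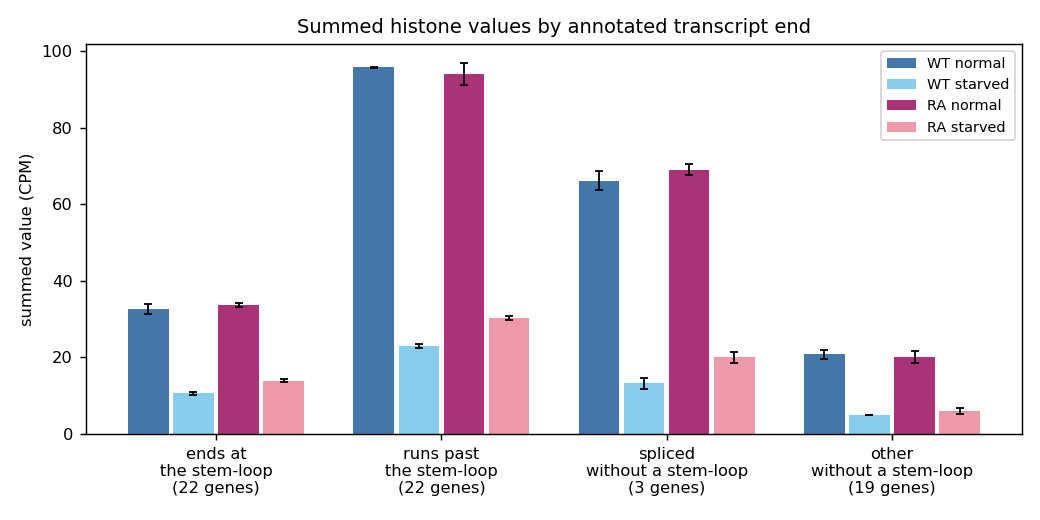
Summed value in CPM (vertical axis from 0) of the clustered histone genes grouped by annotated transcript end, in the 4 groups of libraries. Bars are means of 2 libraries with the SD. The 22 genes that run past the stem-loop sum to 95.8 in fed WT and 22.9 in starved WT.

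Histone genes outside the clusters encode mostly variants and replacement histones. Of 11 tested, 10 were lower in starved WT and 11 in starved RA (limma, BH-adjusted p-value under 0.05), against 39.2% and 33.7% of all genes, with medians of −0.82 and −0.86. The largest changes were in Cenpa, the centromeric H3 variant, at −3.59 in WT and −2.36 in RA, and in H2afx, a variant used in the DNA damage response, at −1.90 and −1.65. In starved RA against starved WT Cenpa was higher by 1.07 (limma BH-adjusted p = 1.90e-10), and the replacement linker histone H1f0 by 0.25 (limma BH-adjusted p = 5.12e-05), with 86.4 and 82.6 against 71.1 and 71.0 CPM. These were the 2 called higher of the 11, and 4 were called lower, H2afj (−0.41), H1fx (−0.40), H2afy (−0.25) and H2afz (−0.18), against 30.8% higher and 32.1% lower of all genes.

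Genes for the machinery of histone mRNA were read beside the histone genes. Of 29 tested genes for stem-loop binding, 3′ processing and decay, 13 were higher and 12 lower in starved WT, and 7 higher and 17 lower in starved RA (limma, BH-adjusted p-value under 0.05). Over all genes 39.3% were higher and 39.2% lower in starved WT, so the WT counts were near the background, and 35.0% and 33.7% in starved RA. Slbp, which encodes the stem-loop binding protein, read 73.5 and 76.8 CPM in fed WT, 69.5 and 72.0 in starved WT, 75.5 and 75.7 in fed RA and 48.5 and 48.4 in starved RA. It thus fell in RA by 0.63 on the log2 scale (limma BH-adjusted p = 1.23e-09), did not pass the test in WT (log2 difference −0.08, limma BH-adjusted p = 0.0885), and had an interaction of −0.55 (limma BH-adjusted p = 1.83e-06). Lsm10, a subunit of the U7 snRNP, rose in WT by 0.999 (limma BH-adjusted p = 5.38e-09), from 9.41 and 9.65 to 19.5 and 20.7 CPM, and read 12.05 and 11.8 in starved RA. Snrpb, Snrpf and Snrpd3, which encode Sm proteins shared by spliceosomal snRNPs, fell in WT by 0.67, 0.56 and 0.47.

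Genes that turn histone transcription on also differed between the genotypes under starvation. Npat, the cyclin E-CDK2 target that activates histone promoters, read 41.9 and 37.1 CPM in fed WT, 47.1 and 46.1 in starved WT, 39.3 and 36.8 in fed RA and 32.8 and 34.8 in starved RA, a log2 difference of −0.45 between starved RA and starved WT (limma BH-adjusted p = 7.70e-06). Casp8ap2, which encodes the FLASH protein of histone locus bodies, differed by −0.34 between starved RA and starved WT (limma BH-adjusted p = 1.91e-05) and did not pass the test between starved and fed WT (log2 difference 0.00). Hist1h1c and Hist1h2bc were higher in starved RA than in starved WT, and a link of Npat or Casp8ap2 mRNA to the histone values was not tested. Of 14 genes on the list of histone transcription and S-phase entry, 8 were lower and 4 higher in starved WT and 12 lower and 1 higher in starved RA, against 39.2% lower and 39.3% higher of all genes in WT and 33.7% and 35.0% in RA, led by Ccna2, the S-phase cyclin, at −2.68 and −2.30. In starved RA against starved WT 9 of the 14 were lower and 3 higher, against 32.1% and 30.8% of all genes.

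**Figure D5:**
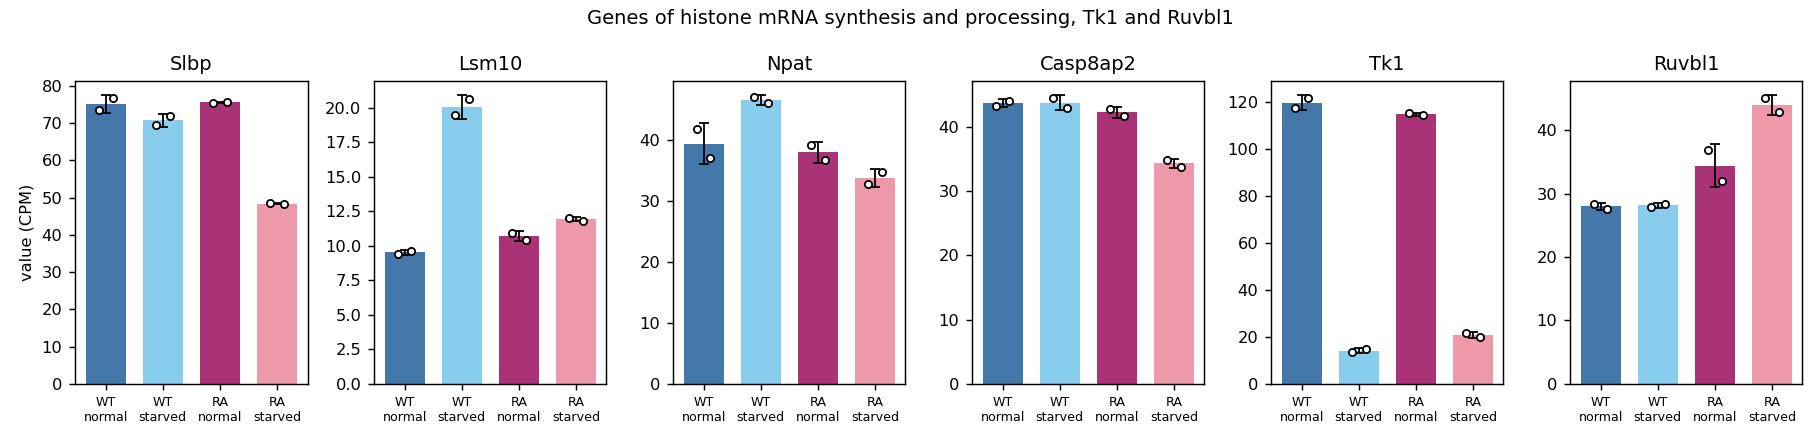
Value in CPM (vertical axes from 0, scaled per panel) of Slbp, Lsm10, Npat, Casp8ap2, Tk1 and Ruvbl1 in the 4 groups. Bars are means of 2 libraries, error bars are SDs and circles are the libraries. Slbp is 48.4 in starved RA against 70.8 in starved WT, and Tk1 falls in both genotypes, with means of 119.7 and 14.1 in WT before and under starvation and 114.7 and 20.8 in RA.

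Genes that mark S phase were also read. Of 30 replication and nucleotide supply genes, 17 were lower and 6 higher in starved WT and 29 lower and none higher in starved RA (limma, BH-adjusted p-value under 0.05), against 39.2% of all genes lower in WT and 33.7% in RA, with medians of −0.25 and −0.59. Tk1, thymidine kinase, fell by 2.998 in WT and 2.41 in RA, and Rrm2, the cell-cycle regulated subunit of ribonucleotide reductase, by 2.70 and 2.46. In starved RA against starved WT 24 of the 30 were lower and 4 higher, with Ung, a uracil-DNA glycosylase, at −1.29, against 32.1% lower and 30.8% higher of all genes. Of the 43 clustered histone genes 2 were lower and 10 higher, or 7 lower and 6 higher after quantile normalization. Of 19 histone chaperone genes 8 were higher and 8 lower in starved WT, near the background of 39.3% and 39.2%, and 4 higher and 15 lower in starved RA (35.0% and 33.7% of all genes), with Anp32e, a chaperone of the variant H2A.Z, at −1.72 and −1.46. These lists were written from general knowledge and their difference from the histone genes was not tested.

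The genes most like the summed core histone value over the 8 samples, by Pearson correlation of log2(CPM + 1), were Gm42674, S100a4, Mboat1, Tk1 and Hnrnpab, with r between 0.9995 and 0.9997. Those most like the linker sum were Chd4, Ptrf, Pcdhga2, Pcdhga1 and Pcdhga3. The 8 samples fall into fed and starved ones and share their depth and scaling, so these correlations are a description only.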

How the data were processed

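RNA was measured by poly(A)-selected RNA-seq in 8 MEF libraries. Per the submitters' processing notes reads were mapped with TopHat2 (version 2.0.9) to mm9, and bedtools and edgeR were used; the counter, annotation and strand setting are not given in the sources used here. The authors deposited 1 table in which each value is a signal, the reads of a gene divided by a scaled library size, in CPM. The columns are named minus and plus and were read as without and with starvation. In each sample 100% of nonzero values were whole multiples of 1 read (tolerance 0.1), which gave recovered reads, 43205841 to 56363034 per library. Low counts were mostly even, as when both mates are counted, so halved reads were also tested. The test had been planned for plain CPM; the library size turned out to be rescaled, and the test was kept.

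Values were tested as log2(CPM + 1) with limma (version 3.58.1, R version 4.3.3), a mean per group over 8 samples, eBayes with a mean-variance trend, two-sided, and BH adjustment over 16232 genes with at least 1 CPM in at least 2 samples. Alternatives used another pseudocount, filter, scaling, sample set or threshold, a replicate block, eBayes without trend, and 2 count tests of the recovered reads, DESeq2 (version 1.42.0) and edgeR (version 4.0.16), of which the latter called 1555 genes in RA against WT in normal medium. The fit was tested on simulated data. The members and lists were chosen with earlier results of these data known. Named genes were all linker members, the 5 highest and 5 lowest called members per comparison, members with a mean of at least 1 CPM, the 4 largest called changes per list, Slbp, Npat, Casp8ap2 and Ruvbl1. The list entry Ars2 had no row. Of the table's rows, 26 had names turned into dates. Structure and sequence came from GENCODE M21 and RefSeq (GRCm38), for names and letters only.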

Additional observations from a re-analysis of the deposited data

Results flagged for a closer look

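In 5 clustered histone genes the response to starvation differed between WT and RA by the test of the interaction (limma, BH-adjusted p-value under 0.05). The difference, as the log2 response in RA less that in WT, was 1.5 for Hist1h1c, 0.97 for Hist2h3c1, 0.69 for Hist1h2bc, 0.53 for Hist1h3c and −0.56 for Hist3h2a. The calls of Hist1h1c, Hist1h2bc, Hist2h3c1 and Hist3h2a held under every alternative run that could give the interaction, and that of Hist1h3c did not. Hist2h3c1 and Hist3h2a overlap other genes on the same strand, Gm20634 and Trim17, and how the reads were divided was not tested. Groups of 2 libraries are too small to look for a single outlying library.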

How the results depend on the processing

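Counts of called genes kept their direction and stayed within 1.5 times the value reported under most alternatives. In RA against WT in normal medium 0 genes became 1 with a value above 0 in at least 4 samples as the filter and 2 with eBayes without the trend, which also raised the interaction from 5 to 10. Leaving out each library gave 0 to 0 genes in that comparison, 9 to 12 for RA against WT under starvation, 39 to 40 and 38 to 40 for starvation in WT and RA, and 4 to 6 for the interaction. Quantile normalization changed the split of RA against WT under starvation to 6 higher and 7 lower and that of the interaction to 3 higher and 4 lower. The negligible difference of Hist1h1c in normal medium ran from −0.083 to 0.0794 over the fits that left out a library, was 0.0257 without WT_normal replicate 1 and was 0.00221 by edgeR on halved reads with the wider filter. Scaling to total reads moved the ratio of normal to starved WT to 3.88 for the core sum and 3.48 for H4. Without Hist1h2bc the core ratios were 3.15 and 2.79, and without Hist1h1c the H1 ratios were 9.44 and 3.10. The causes were not tested, other than the fewer genes summed. The counts of the 5 other gene lists stayed within 1.5 times.

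Pairing by replicate number was weak at most: the 6 correlations of deviations between same-numbered libraries ran from −0.0076 to 0.157, with 2 over 0.1. With the replicate number as a block 0, 12, 40, 40 and 6 histone genes were called, in place of 0, 12, 40, 40 and 5, and with edgeR and the block 6 in the interaction. Over all genes the block raised the limma calls from 1563 to 2059 in RA against WT in normal medium and from 8207 to 8578 in the interaction.

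The 23 genes under the filter rest on few reads per library, and a call missed among them does not show that the groups were alike.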
